A study of Arabidopsis thaliana with 15 samples.

Results

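The Arabidopsis thaliana genes AT1G26380, AT1G26390 and AT1G30700, which encode berberine bridge enzyme-like (BBE-like) oxidoreductases, were followed through infection with bacteria that carry the effector AvrRpt2. They were taken by their locus codes from the array's annotation, which gives each of the 3 genes a probe set of its own, out of 13286 genes with a single-gene probe set. The genes were chosen by their measured values in these 5 groups, so every comparison between the groups counts as used for the choice, and their own levels and differences are described without a test. All plants were 4 weeks old, grown at 22 °C with 12 h of light and 12 h of dark, and their mature leaves received Pseudomonas syringae pv. maculicola with the AvrRpt2 effector by infiltration, at an optical density of 0.01 in 10 mM MgSO4. Wild-type Col-0 leaves were taken at 0, 6 and 10 h and rps2 mutant leaves at 0 and 10 h. Each of these 5 groups had 3 biological replicates, which gave 15 arrays. The labels name no rps2 allele and no mock infiltration, so a difference between times holds both the infection and the time of day. In whole leaves, more transcript per cell and more cells with the transcript cannot be told apart.

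BBE-like proteins are flavoenzymes with a covalently bound FAD, named after an enzyme of alkaloid synthesis in poppies. In Arabidopsis, which does not make those alkaloids, members of the family oxidise sugars, alcohols or indolic intermediates and pass the electrons to oxygen or another acceptor, and several are secreted. The AT1G26380 product, also called FOX1, acts after the cytochrome P450 CYP71A12 in making indole carbonyl nitriles, a group of tryptophan-derived defence compounds, and the AT1G26380 transcript is in wide use as a marker of the response to bacterial flagellin and to cell-wall fragments. RPS2 is the immune receptor that senses cleavage of the plant protein RIN4 by AvrRpt2. A leaf without RPS2 still meets the bacterium, but that receptor does not sense the effector.

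Each deposited value is a log2 difference from the median of its probe set over the 15 arrays. It can be compared between arrays for 1 gene, but it gives no absolute level, no detection limit and no order of abundance between genes. Precision is limited by how many arrays there were. For these 3 genes a printed value of 0.00 is the median of the probe set. The rps2 10 h array of replicate 3 stood apart from its group. Over all probe sets its values differed from the rps2 0 h arrays by an SD of 0.170 to 0.200, close to the 0.185 to 0.240 among those arrays themselves, and from the other rps2 10 h arrays by 0.942 and 0.949. Values that rest on it for the 3 genes are given with and without it, and those of other genes for part of the calls that it changes. The poly-A spike-ins, added to the RNA before labelling, averaged between 0.896 and 1.13 where Col-0 was sampled at 10 h, and between -0.493 and 0.115 elsewhere. Centring the arrays on them moved the median change of all probe sets by -1.08 for Col-0 at 10 h against 0 h, by -1.11 for 10 h against 6 h, by 0.29 in rps2, by 1.2 between genotypes at 10 h and by -1.37 in the interaction. Neither the RPS2 transcript nor its allele was checked, and RPS2 is not analysed here.

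AT1G26380, the indole carbonyl nitrile oxidase gene, had the largest 10 h difference of the 3 genes in the mutant. Its Col-0 values were -3.13, -3.31 and -3.14 at 0 h. They were 3.61, 3.43 and 3.29 after 6 h and 4.81, 4.66 and 4.65 after 10 h. In rps2 they were -3.07, -2.87 and -2.55 at 0 h and 0.00, 0.50 and -2.87 at 10 h. The 3 Col-0 groups did not overlap, and within the rps2 10 h group replicates 1 and 2 lay above every 0 h array while replicate 3 lay among them. The fitted difference of Col-0 from 0 h was 6.63 ± 0.61 at 6 h and 7.90 ± 0.61 at 10 h (log2 ± SE, n = 3 per group), which is 99.4-fold and 238-fold. In rps2 the 10 h difference was 2.04 ± 0.61 with all arrays and 3.08 ± 0.16, or 8.48-fold, without replicate 3 (n = 2). Leaving that array out also lowered the SE of the Col-0 differences to 0.14, since all groups share 1 estimate of the spread.

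AT1G26390 lies next to AT1G26380 on chromosome 1 in the gene order of the TAIR10.1 assembly and encodes a close relative whose substrate in the plant is not described here. In Col-0 it stood at -0.95, -1.08 and -1.40 at 0 h, at 4.26, 4.34 and 4.39 at 6 h, and at 6.06, 6.21 and 6.24 at 10 h. In rps2 it stood at -1.01, -1.18 and -1.10 at 0 h and at 0.04, 0.00 and -1.18 at 10 h. Every Col-0 array at 6 or 10 h lay above every rps2 array, and the rps2 10 h arrays of replicates 1 and 2 lay above all 0 h arrays. The Col-0 difference from 0 h was 5.48 ± 0.25 at 6 h and 7.32 ± 0.25 at 10 h, or 44.6-fold and 159-fold. The rps2 difference at 10 h was 0.72 ± 0.25 over all arrays and 1.11 ± 0.11, or 2.17-fold, without replicate 3.

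AT1G30700 belongs to a second group of neighbouring BBE-like genes on chromosome 1. Its Col-0 values were -0.31, -0.30 and -0.43 at 0 h, then 4.28, 4.20 and 3.96 after 6 h, and 6.51, 6.90 and 6.92 after 10 h. In rps2 they were -0.29, -0.07 and -0.11 at 0 h and 0.20, 0.00 and -0.39 at 10 h. The rps2 arrays of both times thus spanned less than 1 unit, and with replicate 3 the 10 h group enclosed the 0 h group. The Col-0 difference from 0 h was 4.49 ± 0.15 at 6 h and 7.12 ± 0.15 at 10 h, or 22.5-fold and 139-fold. In rps2 the difference at 10 h was 0.10 ± 0.15 over all arrays and 0.26 ± 0.13 without replicate 3, where the groups no longer overlapped but were separated by only 0.075.

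**Figure D1:**
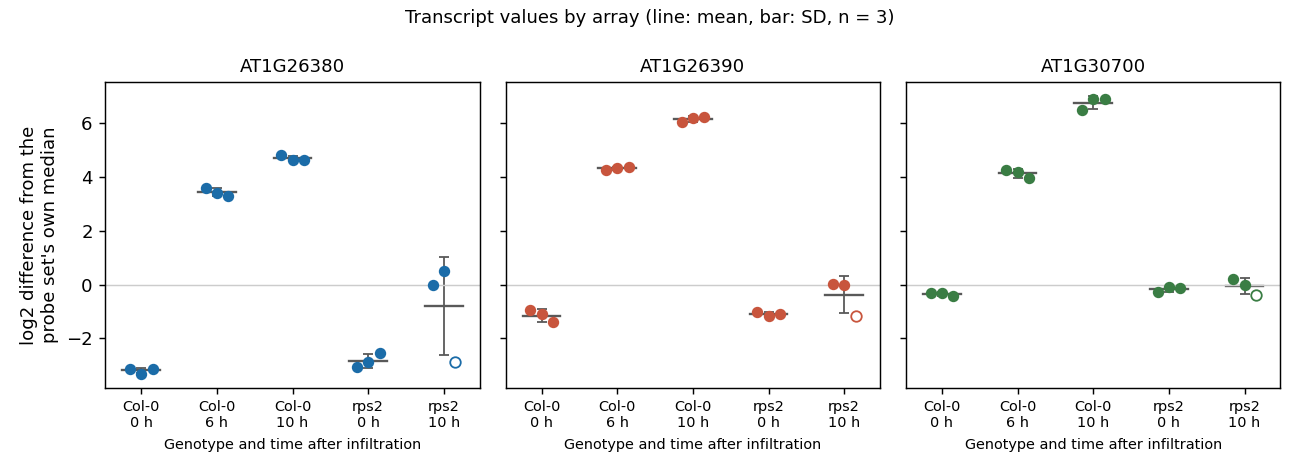
Values of AT1G26380, AT1G26390 and AT1G30700 on each of the 15 arrays, as log2 difference from the probe set's own median (vertical axis), by genotype and hours after infiltration. Points are arrays, the open point is rps2 10 h replicate 3, lines are group means and bars are SDs (n = 3); the Col-0 arrays at 6 and 10 h lie above all rps2 arrays in each panel.

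The order of the groups was the same for all 3 genes: Col-0 at 10 h, Col-0 at 6 h, rps2 at 10 h, rps2 at 0 h and Col-0 at 0 h. The step from Col-0 at 6 h down to rps2 at 10 h was wide, at 4.23 for AT1G26380, 4.71 for AT1G26390 and 4.21 for AT1G30700 on the log2 scale with all arrays and 3.19, 4.31 and 4.04 without replicate 3 of rps2 at 10 h. The gaps between the nearest arrays were 2.79, 4.23 and 3.75 either way. The lower end of the order was not settled. With all arrays the rps2 groups overlapped for each gene, and the 0 h groups of the 2 genotypes overlapped for AT1G26390.

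At 0 h the genotypes were close for these genes. The rps2 leaves stood higher by 0.36 ± 0.61 for AT1G26380, by 0.05 ± 0.25 for AT1G26390 and by 0.19 ± 0.15 for AT1G30700, with all arrays. Without replicate 3 of rps2 at 10 h the differences were unchanged and the SEs were 0.14, 0.10 and 0.12. The gaps between the nearest 0 h arrays were 0.053 for AT1G26380 and 0.014 for AT1G30700. With arrays centred on the poly-A spike-ins the 3 differences were 0.20, -0.11 and 0.02, so AT1G26390 changed sign. Its difference was -0.077 on the deposited scale without Col-0 0 h replicate 3.

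Between 6 and 10 h in Col-0 the 3 genes differed in how far they went on. On the deposited scale AT1G26380 was higher at 10 h by 1.26 ± 0.61, AT1G26390 by 1.84 ± 0.25 and AT1G30700 by 2.63 ± 0.15, the reverse of their order at 6 h. These steps depended on the scaling of the arrays. Centred on the poly-A spike-ins they were 0.15, 0.72 and 1.52, and after a repeated quantile normalisation they were -0.08, 0.75 and 1.45. That normalisation was run on the centred values and gives every array the same distribution. It can shrink a group that lies far from the medians, so it cannot decide the direction of a step. On the poly-A scale and after quantile normalisation the AT1G26380 step was within its SE of 0 (SEs of 0.18 and 0.21 without rps2 10 h replicate 3). Its step after 6 h was therefore not settled. The steps of AT1G26390 and AT1G30700 kept their sign, and the order of the 3 genes stayed as it was under these scalings.

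**Figure D2:**
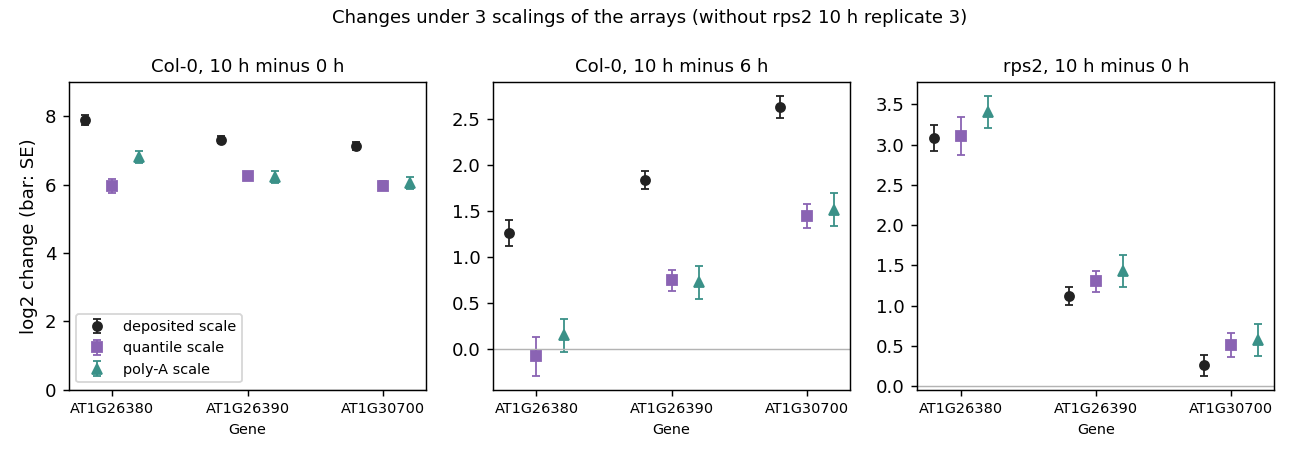
Log2 change of the 3 genes in Col-0 from 0 to 10 h (left), in Col-0 from 6 to 10 h (middle) and in rps2 from 0 to 10 h (right), on the deposited scale, after repeated quantile normalisation and with arrays centred on the poly-A spike-ins, all without rps2 10 h replicate 3. Bars are SEs; only AT1G26380 between 6 and 10 h reaches 0, at -0.08 and 0.15 on the other scales.

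The dependence on RPS2 was read from the 10 h differences of both genotypes, which share no arrays. Without replicate 3, the interaction, which is the Col-0 10 h difference less that of rps2, was 4.81 ± 0.21 for AT1G26380, 6.20 ± 0.15 for AT1G26390 and 6.86 ± 0.18 for AT1G30700. With all arrays it was 5.85 ± 0.86, 6.60 ± 0.35 and 7.03 ± 0.21. At 10 h the mutant was lower than Col-0 by 21.9-fold for AT1G26380, 71.1-fold for AT1G26390 and 102-fold for AT1G30700 without replicate 3, and by 45.1-fold, 93.7-fold and 114-fold with all arrays. These folds hold on the deposited scale, where the log2 differences without replicate 3 were -4.45, -6.15 and -6.68 in that gene order. Without that array they were -3.22, -4.92 and -5.45 on the poly-A scale, and -2.70, -4.94 and -5.26 after quantile normalisation. The interaction was then 3.42, 4.81 and 5.47 on the poly-A scale, and 2.86, 4.97 and 5.46 after quantile normalisation. On the deposited scale the Col-0 differences of 10 h from 0 h lay between 7.12 and 7.90, and those of rps2 between 0.26 and 3.08 without replicate 3.

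The rps2 difference as a percentage of the Col-0 difference on the log2 scale puts this on a common footing. It was 39.1% for AT1G26380, 15.2% for AT1G26390 and 3.65% for AT1G30700 without replicate 3, and 25.9%, 9.79% and 1.36% with all arrays. Among 298 other single-gene probe sets that were higher in Col-0 at 10 h by at least 4 the median was 39.7%, with quartiles of 20.3% and 61.2%. Other BBE-like genes past that limit are among the 298. With all arrays that median was 26.7%. Those probe sets and the 3 genes were all taken for high Col-0 values, so a place among them is a description only. On the poly-A scale the 3 values were 49.9%, 22.9% and 9.53%, beside a median of 61.8% over the 146 probe sets past the same limit there. Centred values do not show how far above background AT1G30700 was in rps2.

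**Figure D3:**
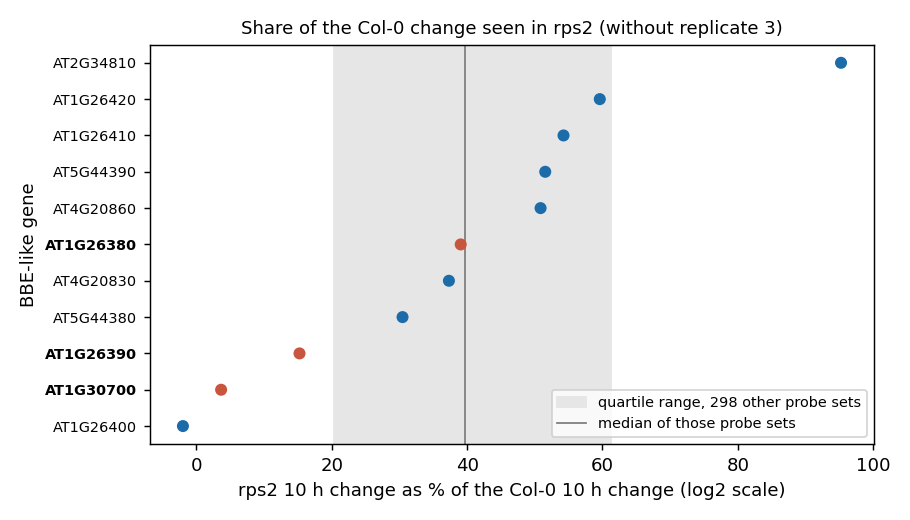
The rps2 10 h change as a percentage of the Col-0 10 h change, both on the log2 scale, for the 3 genes (red, bold) and 8 other BBE-like genes that rose by at least 1 in Col-0 (blue), without rps2 10 h replicate 3. The grey band and line are the quartiles and median of 298 probe sets other than those of the 3 genes. They include the blue genes that rose by at least 4 in Col-0. AT1G26400, AT1G30700 and AT1G26390 lie below the band and AT2G34810 above it.

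The other genes of the family show how far this pattern extends, in a list that was chosen with earlier results of these data known. Of 24 further BBE-like genes listed, 19 had a single-gene probe set, which brings the measured family to 22, and AT1G30720, AT1G30730 and AT4G20840 were covered only by probe sets shared between genes and are not named with values. In Col-0 at 10 h against 0 h 11 of the 19 rose and 1 fell in limma's test (29.2% of all probe sets were called higher and 30.5% lower), with a list median of 0.39 beside 0.00 for all probe sets. At 6 h 8 rose and 2 fell (25.5% and 28.6% of all), with a median of 0.081 beside -0.04. Of the 11 that rose at 10 h, 8 did so by at least 1 and kept their direction on the poly-A scale. The other 3, AT1G30740 at 0.41, AT1G30760 (a monolignol oxidase gene) at 0.21 and AT1G34575 at 0.19, turned to -0.67, -0.87 and -0.88 there, where 8 of the 19 were called higher and 11 lower. The median of all probe sets moved by -1.08 on that scale, and the share of all called there is not given. On the deposited scale AT1G30740 had 0.16 without Col-0 10 h replicate 1, AT1G30760 had 0.14 without Col-0 10 h replicate 2 and AT1G34575 had 0.16 without Col-0 0 h replicate 2, none of which passed the test.

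AT1G26380 and AT1G26390 open a run of 5 consecutive protein-coding genes that ends with AT1G26420, and all 5 were higher in Col-0 after infection. AT1G26420 rose by 6.06 ± 0.78 at 6 h and 6.62 ± 0.78 at 10 h, AT1G26410 by 3.91 ± 0.46 and 4.37 ± 0.46, and AT1G26400 by 2.18 ± 0.14 and 4.02 ± 0.14. In rps2 the values of the run ranged widely. Without replicate 3, AT1G26420 rose by 3.94 ± 0.16 and AT1G26410 by 2.37 ± 0.20 in the mutant, 59.6% and 54.2% of their Col-0 changes, while AT1G26400 was at -0.08 ± 0.15. With all arrays they were at 2.60 ± 0.78, 1.63 ± 0.46 and -0.13 ± 0.14, of which none passed, and the first 2 of these are 39.3% and 37.3% of the Col-0 changes. On the poly-A scale without replicate 3 the percentages were 76.9% for AT1G26420, 81.6% for AT1G26410 and 8.01% for AT1G26400. AT1G26400 stood at -0.10, -0.23 and -0.31 in rps2 at 10 h and at 0.07, -0.10 and -0.24 at 0 h, and at 3.63, 4.18 and 4.00 in Col-0 at 10 h. It lies between AT1G26390 and AT1G26410. Over the 15 arrays its Pearson r was 0.993 with AT1G30700, 0.973 with the adjacent AT1G26390 and 0.912 with AT1G26380. All 5 genes have probe sets without the suffix for shared transcripts, but cross-hybridisation between such near relatives was not tested.

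The measured neighbours of AT1G30700 had smaller changes. The genes AT1G30700 to AT1G30740 are also 5 consecutive protein-coding genes, of which AT1G30710 and AT1G30740 had probe sets of their own. AT1G30710 was at 0.16 ± 0.08 in Col-0 at 10 h and did not pass the test, and AT1G30740 was at 0.41 ± 0.16, beside 7.12 for AT1G30700. Centred values do not show whether the probe sets of these neighbours were above background. The AT1G30740 arrays of Col-0 at 10 h were at 0.84, 0.04 and 0.13, so that replicate 1 carried its value. Elsewhere in the family, AT4G20860, whose product oxidises cellulose fragments, rose by 6.78 ± 0.68 in Col-0 at 10 h, and AT4G20830, an oligogalacturonide oxidase gene, rose by 4.92 ± 0.31. AT2G34810, a gene known to respond to wounding and jasmonate, rose by 4.87 ± 1.04, AT5G44380 by 3.23 ± 0.24 and AT5G44390 by 1.84 ± 0.22. AT5G44410 fell by 2.97 ± 0.23.

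In rps2 at 10 h against 0 h, limma called 0 of the 19 other family genes and 0 probe sets in all (percent called 0) with all arrays, where 8726 probe sets had an unadjusted p under 0.05. Array weights called 8 of the 19 higher and 1 lower, and a trended and robust variance 5 higher, with no share of all probe sets given for either fit. Without replicate 3, 8 rose and 1 fell (21.2% and 26.9% of all probe sets), with a list median of 0.080 beside -0.07. AT2G34810 rose by 4.64 ± 0.35 there, 95.2% of its Col-0 change, AT4G20860 by 3.45 ± 0.13 and AT4G20830 by 1.84 ± 0.12. With all arrays these 3 were at 2.91 ± 1.04, 2.27 ± 0.68 and 1.34 ± 0.31. AT5G44380, AT5G44390 and AT5G44400 were at 0.98, 0.95 and 0.92 without replicate 3, and AT5G44410 at -0.71, all past the threshold. In the same order they were at 0.64, 0.69, 0.55 and -0.42 with all arrays. Between the genotypes at 10 h, 10 of the 19 were lower in rps2 and 1 higher with all arrays (28.2% and 26.9% of all). On the poly-A scale 7 were lower and 10 higher, where the median of all probe sets moved by 1.2 and the share of all called is not given.

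The test of the interaction, with all arrays, called 8 of the 19 higher and 1 lower (22.4% and 22.1% of all probe sets). On the poly-A scale 5 were higher and 11 lower, and after the repeated quantile normalisation 4 were higher and 1 lower. Poly-A centring moved the median interaction of all probe sets by -1.37, and the share of all probe sets called is given for neither of these scales. Among the genes called on the deposited scale AT1G26400 had 4.15 ± 0.20 (limma adjusted p = 8.03e-09), AT4G20860 had 4.52 ± 0.97 (adjusted p = 0.0019) and AT4G20830 had 3.59 ± 0.43 (adjusted p = 1.92e-05). AT2G34810 had 1.96 ± 1.47 and did not pass (adjusted p = 0.316). Without replicate 3 its interaction was 0.23 ± 0.47, and on the poly-A scale without that array it was -1.16, past the threshold in the other direction. At 0 h, 1 of the 19 was higher in rps2 and 2 were lower (8.24% and 7.69% of all), with AT4G20830 higher by 1.03 ± 0.31 and AT5G44400 and AT5G44410 at -2.11 ± 0.24 and -0.97 ± 0.23. The call of AT4G20830 was lost without any 1 of the 0 h arrays, with values of 0.88 to 1.15, and that of AT5G44410 without Col-0 0 h replicate 3 (-0.85) or rps2 0 h replicate 3 (-0.84). Between 6 and 10 h in Col-0, 4 rose and 0 fell (12.7% and 17.2% of all), AT1G26400 among them with 1.85 ± 0.14. Without replicate 3 of rps2 at 10 h 9 rose (18.4% of all). On the poly-A scale 1 rose and 11 fell, where the median of all probe sets moved by -1.11 and the share of all called is not given.

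**Figure D4:**
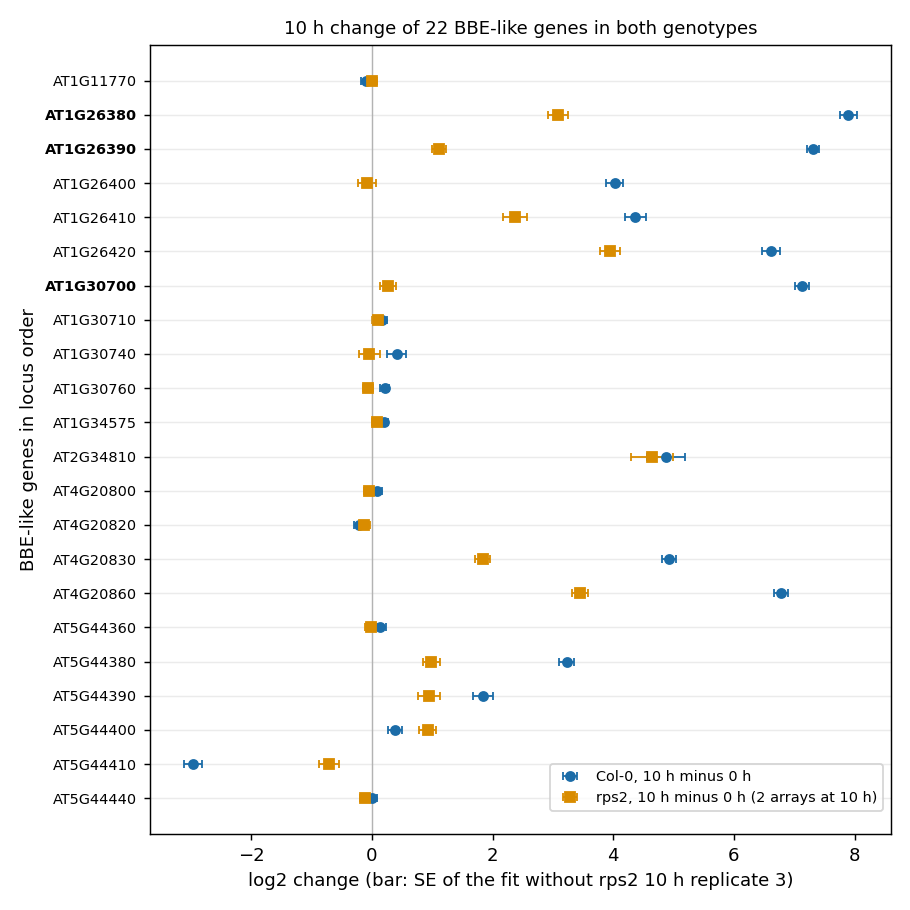
Log2 change from 0 to 10 h in Col-0 (circles) and rps2 (squares, 2 arrays at 10 h) for the 22 measured BBE-like genes in locus order, with the 3 genes in bold. Bars are SEs of the fit without rps2 10 h replicate 3; within the run AT1G26380 to AT1G26420 the Col-0 values lie between 4.02 and 7.90 and the rps2 values between -0.08 and 3.94.

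Genes of the same response were set beside the family from fixed lists. These lists were chosen with earlier results of these data known, so the calls of their genes are not independent support. Of 13 marker genes for bacterial patterns and oligogalacturonides, 5 had a named single-gene probe set. All 5 rose at both later times of Col-0 in limma's test, beside 25.5% and 29.2% of all probe sets called higher. Their medians were 4.69 and 5.21, beside -0.04 and 0.00 for all probe sets. The receptor kinase gene AT1G51890 rose by 7.01 ± 0.98 at 6 h and 6.81 ± 0.98 at 10 h, and the peroxidase gene AT5G64120 (PRX71) by 4.69 ± 0.85 and 4.97 ± 0.85. In rps2 without replicate 3 they rose by 5.01 ± 0.19 and 4.24 ± 0.22, beside 3.08 fitted for AT1G26380. The ubiquitin ligase genes PUB22 and PUB23 and the transcription factor gene WRKY53 completed the list, and all 5 rose in rps2 without replicate 3 (21.2% of all probe sets called higher). With all arrays limma called 0 of the 5 there, with AT1G51890 at 3.32 ± 0.98 and AT5G64120 at 2.80 ± 0.85 and a list median of 2.76. Of 19 listed genes for tryptophan-derived defence metabolites, CYP71A12 among them, and of 11 for enzymes that make or consume hydrogen peroxide, 0 had a named probe set, so neither the pathway of AT1G26380 nor the fate of the peroxide is analysed here.

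The genes whose pattern was most like each of the 3 were taken by Pearson r over the 15 arrays, a description over arrays that fall into groups. For AT1G26380 these were AT5G25940, AT5G63490, AT2G39650, the U-box protein gene AT5G09800 and the glutathione transferase-like gene AT5G44990, with r of 0.999 to 0.997. AT5G25940 was higher by 2.59 in Col-0 at 10 h and by 1.08 in rps2 without replicate 3, a similar shape at a smaller size. For AT1G26390 they were AT5G46080, CCOAMT (a methyltransferase gene of phenylpropanoid metabolism), AT3G62590, AT5G57510 and AT4G37290, with r of 0.997 to 0.995. For AT1G30700 they were AT1G24600, the xyloglucan endotransglucosylase gene XTH29, the beta-glucosidase gene BGLU45, AT1G52900 and AT4G15120, with r of 0.997 to 0.996. BGLU45 was higher by 7.42 in Col-0 at 10 h and by 0.61 in rps2 without replicate 3. Among the 3 genes themselves r was 0.991 for AT1G26390 with AT1G30700, 0.975 for AT1G26380 with AT1G26390 and 0.946 for AT1G26380 with AT1G30700. Without replicate 3 of rps2 at 10 h 4 of the 5 genes named for each were again among its 5 most alike.

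The labelled tissue, mature leaf, could not be checked against the level of its markers, since the values are centred. Of 15 marker genes for leaf cell types 2 were measured, and both were lower in Col-0 at 6 and 10 h. Of all probe sets 28.6% and 30.5% were called lower at these times, so 2 such genes say little about cell types. The guard-cell lineage gene FMA (AT3G24140) fell by 0.59 ± 0.10 in Col-0 at 6 h and by 0.60 ± 0.10 at 10 h, and the phloem sugar transporter gene SWEET11 (AT3G48740) fell by 0.81 ± 0.11 and 1.22 ± 0.11. Without replicate 3, FMA rose by 0.30 ± 0.10 in rps2 at 10 h and SWEET11 was at -0.19 ± 0.12. With all arrays FMA was at 0.22 ± 0.10 there and did not pass. Its group means at 0 h were 0.46 in Col-0 and 0.0005 in rps2. The part of these 2 markers in the results above was not tested.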

How the data were processed

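Transcripts of mature leaves were measured on 15 single-channel arrays, grouped by their titles into 5 groups of 3. Per the submitters' processing notes, the authors used RMA; the deposited values are log2 values, and each of the 22810 probe sets had its median at 0, a centring that the sources used here do not describe. The authors' array normalisation sets each transcript against all others of its array.

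Without 64 control probe sets, 22746 were tested. Genes were named through the platform annotation and RefSeq's TAIR10.1 gene table (13436 single-gene probe sets). A gene counts as measured if it has such a probe set. In the annotation used, 8730 probe sets had no gene entry, so a listed gene called not measured may still be on the array. A mean per group was fitted with limma 3.58.1 in R 4.3.3 (10 residual degrees of freedom), with Benjamini-Hochberg adjustment over all tested probe sets and a threshold of 0.05, two-sided, in 7 comparisons. Errors after ± are standard errors. p-values measure the spread between the labelled replicates. The 3 genes and the lists were chosen with earlier results of these data known. Named were the 3 genes, the measured genes of the family, up to 6 of each other list and the 5 genes most alike to each of the 3. Alternatives covered poly-A centring (24 probe sets), quantile and median scaling, a replicate block, only the groups compared, trended and robust variance, array weights (statmod 1.5.0) and each array left out. No protein or promoter sequence was used here. In simulated data with changes at 6 h in Col-0 (6 h minus 0 h, 22746 probe sets), 66% of changes of 0.5 and 99% of changes of 1 were recovered, with 9 false calls.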

Additional observations from a re-analysis of the deposited data

Results flagged for a closer look

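The 10 h change differed between Col-0 and rps2 by limma's test of the interaction for 13 of the 26 measured genes of the lists. This count pools both directions, and of all probe sets 22.4% were called higher and 22.1% lower. By direction, 8 of the 19 family genes were higher and 1 lower. Of the 5 pattern-response genes 2 were higher and 0 lower, and both measured cell-type markers were lower. Whether 13 of 26 exceeds the share of all probe sets called in either direction was not tested. Values are given as Col-0 change minus rps2 change on the log2 scale with all arrays. In the BBE-like family the values were 4.15 for AT1G26400, 2.74 for AT1G26410, 4.02 for AT1G26420, 0.29 for AT1G30760, 3.59 for AT4G20830, 4.52 for AT4G20860, 2.59 for AT5G44380, 1.15 for AT5G44390 and -2.55 for AT5G44410. Among the pattern-response genes they were 3.43 for AT4G23810 (WRKY53) and 3.11 for AT3G52450 (PUB22), and among the cell-type markers -0.82 for AT3G24140 (FMA) and -1.03 for AT3G48740 (SWEET11). Without rps2 10 h replicate 3 the value of AT1G30760 was 0.27 and no longer passed, while AT5G44400 at -0.54 and AT1G51890 at 1.80 passed. All 5 measured pattern-response genes passed there, in a fit for which the share of all probe sets called in the interaction is not given. On the poly-A scale with all arrays AT1G30760 turned to -1.08, a call in the other direction. AT5G44390 was at -0.22 and AT1G26410 at 1.37 there, and neither of these passed. Further family genes were called lower on that scale, such as AT5G44400 at -1.54 and AT1G11770 at -1.47, where the median of all probe sets moved by -1.37. After the repeated quantile normalisation AT1G26410 at 1.65, AT1G26420 at 2.56, AT1G30760 at 0.21 and AT5G44390 at 0.75 no longer passed.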

How the results depend on the processing

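Values for the 3 genes are given in the order AT1G26380, AT1G26390, AT1G30700. For the counts of listed genes under other processing, the share of all probe sets called is mostly not given. The replicate block moved no value of the 3 genes and changed no count of listed genes by over 1.5 times: the family count of calls in Col-0 from 0 to 10 h was 11 with it. Same-numbered arrays showed no common deviation (correlations of -0.29 to 0.256 over 30 pairs, 2 over 0.1), and the main fit treated them as unpaired. With deviations from means of 3 arrays this check cannot exclude that same-numbered samples shared a batch. Of 228 alternative values of the 3 genes 200 stayed within the spread between replicates, 27 went beyond it in the same direction and 1 beyond it with a change of sign. Among the 200, 3 small values also changed sign: AT1G30700 in rps2 (-0.035 without rps2 10 h replicate 1) and AT1G26390 at 0 h (-0.11 with poly-A centring, -0.077 without Col-0 0 h replicate 3). Centring on array medians moved none beyond that spread. A filter on low values was not run, since centred values do not measure abundance, and no depth can be given.

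Poly-A centring gave 6.82, 6.24 and 6.05 in Col-0 from 0 to 10 h, 0.15, 0.72 and 1.52 from 6 to 10 h, and 4.49, 5.23 and 5.66 in the interaction. For the genotypes at 10 h it gave -4.29 for AT1G26380, -5.35 for AT1G26390 and -5.63 for AT1G30700. For AT1G30700 it gave 0.39 in rps2 at 10 h and 0.023 for rps2 minus Col-0 at 0 h. Repeated quantile normalisation gave 6.05 for AT1G26380 in Col-0 at 6 h, then 5.97, 6.27 and 5.97 from 0 to 10 h, -0.081 (a change of sign), 0.75 and 1.45 from 6 to 10 h, -3.75, -5.41 and -5.54 for the genotypes at 10 h, and 3.91, 5.44 and 5.73 in the interaction. With each array of a comparison left out in turn the interaction ran from 4.81 to 6.50 for AT1G26380 and from 6.20 to 6.81 for AT1G26390, the lowest without rps2 10 h replicate 3.

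For the count of calls among the 19 other family genes, poly-A centring gave 19 in Col-0 from 0 to 10 h, 12 from 6 to 10 h, 8 in rps2, 17 for the genotypes at 10 h and 16 in the interaction (5 higher and 11 lower, against 8 and 1). Quantile normalisation gave 2 from 6 to 10 h, 6 in rps2, 1 at 0 h and 5 in the interaction. Fits of only the groups compared gave 8 from 6 to 10 h and 5 at 0 h. Array weights gave 7 from 6 to 10 h, 9 in rps2 and 5 at 0 h, and the trended and robust variance gave 5 in rps2. Leaving out single arrays gave 4 to 9 calls from 6 to 10 h, 0 to 9 in rps2 and 1 to 5 at 0 h, the highest of each without rps2 10 h replicate 3. That fit was added after the data had been seen for the comparisons the array is not part of. The lowest count at 0 h, 1 call, came without Col-0 0 h replicate 3 or without rps2 0 h replicate 3.

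For the 5 pattern-response genes, fits of only the groups compared gave 3 calls from 6 to 10 h and 1 for the genotypes at 10 h. Array weights gave 2 from 6 to 10 h, 5 in rps2 and 4 in the interaction, and the trended and robust variance gave 4 in rps2. Poly-A centring gave 4 in rps2 and 2 for the genotypes at 10 h. Quantile normalisation gave 0 from 6 to 10 h, 4 in rps2, 0 at 0 h and 2 for the genotypes at 10 h. Leaving out single arrays gave 1 to 2 from 6 to 10 h, 0 to 5 in rps2, 1 to 2 at 0 h and 2 to 5 in the interaction, again highest without rps2 10 h replicate 3. The interaction had 4 calls without rps2 10 h replicate 1 or without replicate 2. With Spearman's rho 0 of the 5 most alike genes were shared with Pearson's r for AT1G26380, 0 for AT1G26390 and 0 for AT1G30700. The causes of these differences were not tested.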
